A study of Mus musculus with 4 samples.

Results

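The 2 WT libraries of the series, replicates A and C, give the absolute transcriptome of sorted hair follicle stem cells. They were chosen by their labels, as 2 of the 4 libraries in the series, and the other 2 (Foxp3-DTR) were not used. Both come from skin epidermis of C57BL/6 mice that were WT, received diphtheria toxin (DT) at 15 ng/g intraperitoneally, kept their regulatory T cells (Treg) and were taken 4 days after depilation of the back at 7 to 10 weeks of age. Whether each library is its own animal is not stated in the labels, so the spread between them may be technical. The gate of the sort is not given in the sources used here. Within them, all 24084 gene rows of the count table were ranked by mean CPM, the counts of a gene scaled to a common total of gene counts.

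Hair follicle stem cells sit in the bulge, a niche of the outer root sheath, where they are anchored to a basement membrane and stay quiet for most of the hair cycle. They carry the keratins of basal epidermal cells together with Cd34 and a set of transcription factors that hold the follicle fate. Wnt signals activate them and BMP signals restrain them, and depilation starts a new growth phase. The bulge lies below the sebaceous gland and the infundibulum, and the interfollicular epidermis surrounds the follicle's opening.

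Gene counts summed to 13911765 in WT A and 15923154 in WT C. A count of 0 therefore allows up to 0.216 CPM in WT A against 0.188 in WT C (3 counts, for counting error only). Alignments that were not unique made up 61.3% of all counts in the table for WT A and 51.8% for WT C and stand in no gene. Genes with near-identical copies can therefore be undercounted. Levels of different genes are compared per kb of annotated exon. Where values come in pairs, the first is WT A and the second WT C.

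All 5 markers of follicle stem cells were present in both libraries. Krt5 and Krt14, the basal keratin pair, stood at 15749.8 and 14772 CPM for Krt5 and at 4164 and 3457 CPM for Krt14, in WT A and WT C in that order. Cd34, a surface sialomucin used to sort bulge cells, stood at 956 CPM in WT A against 1242 in WT C. Sox9, a factor needed to form and keep the bulge, stood at 629 and 685 CPM. Lgr5, a receptor for R-spondins on active stem cells, stood at 359 and 550.5 CPM. The order of the markers per kb was Krt5, Krt14, Cd34, Sox9 and Lgr5 in both libraries, and the mean levels were 6946 ± 315 CPM per kb for Krt5 and 96.5 ± 28.7 CPM per kb for Lgr5 (SD, n = 2). In GENCODE M21 coordinates on GRCm38, Krt5 lies on chromosome 15 (101707070 to 101712898, minus strand) and Krt14 on chromosome 11 (100203162 to 100207548, minus strand). Cd34 lies on chromosome 1 (194938819 to 194961279, plus strand), Sox9 on chromosome 11 (112782224 to 112787760, plus strand) and Lgr5 on chromosome 10 (115450311 to 115587780, minus strand).

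At least 1 CPM in both libraries was reached by 11964 of 24084 gene rows (49.7%). Of these, 9502 genes reached 10 CPM, 2093 reached 100 CPM and 44 reached 1000 CPM in both. The counts were spread widely: Krt5 alone held 1.53% of them, the top 10 genes 6.64%, the top 100 genes 18.4% and the top 1000 genes 47.3%.

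**Figure D1:**
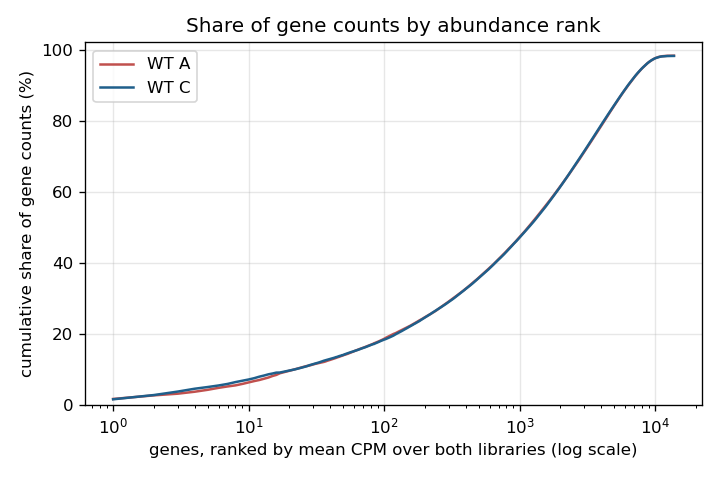
Cumulative share of gene counts (percent) against the rank of genes by mean CPM (log scale), 1 line per library. Both lines run nearly together, at 18.5% for WT A and 18.3% for WT C after 100 genes.

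The most abundant transcripts by CPM after Krt5 were Krt15, Postn, Col17a1 and Apoe. Krt15, a keratin enriched in bulge cells, stood at 10091 and 12001 CPM. Postn, a matrix protein, stood at 4751 CPM in WT A against 9770.3 in WT C, a 2.06-fold gap. Col17a1, a hemidesmosomal collagen that anchors basal cells, stood at 5502 and 8021 CPM. Apoe, a lipid carrier, stood at 5486 and 4824 CPM. The next ranks held the 45S ribosomal RNA row Rn45s, the desmosome plaque protein Dsp, the plakin Dst, the elongation factor Eef2, Krt14, the elongation factor Eef1a1 (uncertain for near-identical copies) and the taurine transporter Slc6a6, which stood at 3026 and 4258 CPM. Below them came Perp, a desmosome component, and Sfrp1, a secreted Wnt antagonist, which stood at 3239 and 3411 CPM. The transcription factor Trp63, which specifies stratified epithelium, was also among the 30 highest genes, at 1801 and 2031 CPM. Per kb, Krt5 and Krt15 were the highest, and their order differed between the libraries: Krt5 stood at 7169 and 6724 CPM per kb and Krt15 at 5936 and 7059 CPM per kb. Those 2 neighbours in the order do not differ beyond the spread between libraries.

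Keratins, the intermediate filaments of epithelia, took 4.40% of the gene counts in WT A and 3.40% in WT C. Of 52 keratin genes, 23 reached 1 CPM in both libraries (44.2%, against 49.7% of all gene rows). Another 16 had 0 counts in both (30.8%, against 38.0%). After Krt5 and Krt15 came Krt14, at 2452 and 2036 CPM per kb, and Krt17, a keratin of the outer root sheath, at 2789 and 1450. Krt17 stood above Krt14 in WT A and below it in WT C. Of the 50-base stretches of Krt14, 86.1% were unique among annotated transcripts, against 96.0% for Krt17. Krt14 may thus be undercounted, and the order of the 2 is uncertain. Krt10, a keratin of suprabasal epidermal cells, stood at 2204 CPM per kb in WT A and 120.2 in WT C. In WT A the level of Krt10 lay near that of Krt14, and in WT C far below it. Krt1 and Krt77, also suprabasal, were higher in WT A too: Krt1 stood at 2141 and 171 CPM, and Krt77 at 1547 and 73.5 CPM. Krt6a stood at 57.1 and 82.8 CPM per kb and shares reads with a near-identical copy, so its value is uncertain. Krt20, Krt26, Krt33b, Krt73 and Krt81 had 0 counts in both libraries.

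**Figure D2:**
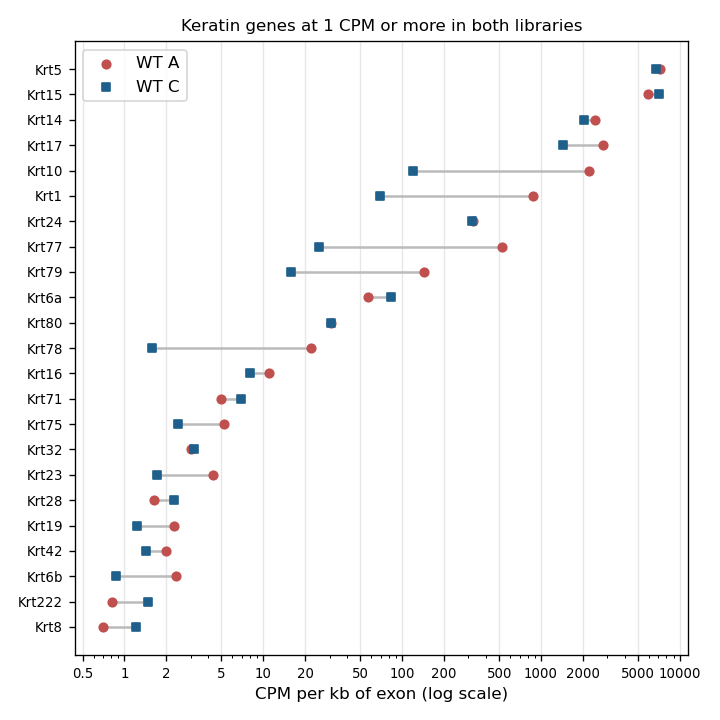
Levels of the 23 keratin genes at 1 CPM or more in both libraries, in CPM per kb of exon (log scale), 1 point per library joined by a line. Krt5, Krt15 and Krt14 lie close together in both libraries, and Krt10, Krt1 and Krt77 lie far apart.

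The promoters of Krt5, Krt24, Krt10, Krt77 and Krt79 are printed because Krt5 and Krt24 had like levels in both libraries and the others did not. Krt24 was picked once its values had been seen, and they were 595 and 586 CPM. Krt79, a keratin of the infundibulum and sebaceous duct, stood at 301 and 33.4 CPM. Each sequence is the 60 bases before the RefSeq start (GRCm38.p6, minus strand, 5′ to 3′), from chr15:101712906-101712965, chr11:99285263-99285322, chr11:99389365-99389424, chr15:101869706-101869765 and chr15:101940325-101940384, in the order printed.
Krt5: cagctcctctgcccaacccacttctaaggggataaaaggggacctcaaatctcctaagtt
Krt24: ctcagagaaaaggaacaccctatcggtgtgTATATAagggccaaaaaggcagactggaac
Krt10: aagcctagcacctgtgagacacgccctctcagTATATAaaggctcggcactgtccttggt
Krt77: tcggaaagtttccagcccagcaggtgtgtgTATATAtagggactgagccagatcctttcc
Krt79: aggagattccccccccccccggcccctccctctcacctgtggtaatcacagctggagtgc
Capitals mark TATATA or TATAAA, the motifs searched in the gene's direction between 45 and 16 bases before the start. Krt24, Krt10 and Krt77 hold a motif in that window, and Krt5 and Krt79 hold none, so among these 5 the motif stands on both sides of that split. Promoters whose RefSeq start lay within 100 bases of the annotated 5′ end were used. Of them, 533 of 12825 (4.16%) held either motif over all genes, and 113 of 7192 (1.57%) over genes at 1 CPM in both libraries. The share was 17 of 32 (53.1%) over keratins, with 6 of 12 among those at 1 CPM in both libraries and 6 of 11 among silent ones. Counting TATAAA on the other strand too, the share over all genes was 4.55%. TATATA reads the same on both strands. Genes at least 2-fold higher in WT A held a motif in 16 of 159 promoters (10.1%), against 2 of 179 (1.12%) for genes at least 2-fold higher in WT C and 88 of 6082 (1.45%) for all genes with a mean of at least 10 CPM. The share was also high in other sets, at 6 of 60 over the 100 most abundant genes and 360 of 4157 (8.66%) over silent genes. The 100 most abundant genes include Krt10 and Krt77, which were also at least 2-fold higher in WT A and hold a motif. These shares are a description, with no test.

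Genes that hold the cells in place were widely detected. Of 26 basement membrane genes, 24 reached 1 CPM in both (92.3%, against 49.7% of all gene rows). The list took 1.93% of counts in WT A and 3.04% in WT C. Its median log2 ratio of WT A over WT C was -0.23, and -0.01 once centred on genes of like transcript length. Npnt, an integrin ligand of the bulge, stood at 795 and 859.6 CPM. Lamb3, a laminin chain, stood at 733 and 989 CPM, and Col7a1, the collagen of anchoring fibrils, at 393 and 899.8 CPM. Among 28 genes of desmosomes and junctions, Perp led per kb at 1908 and 1639 CPM per kb. Dsp followed at 411 and 458 CPM per kb and Ctnnb1, beta-catenin, at 374 and 346 CPM per kb. Dsc3, a basal desmocollin, stood at 1495 and 1843 CPM. Dsc1, the desmocollin of differentiated cells, stood at 124 CPM in WT A against 9.80 in WT C.

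Of 30 bulge identity genes, 29 reached 1 CPM in both libraries (49.7% of all gene rows did). The member that did not was Fgf18, an FGF ligand. Within the list, Krt15, Postn, Col17a1, S100a4 and Sfrp1 led by the mean per kb, with S100a4 overlapping a neighbouring gene. Over the 28 with a mean of at least 10 CPM, 26 were higher in WT C, with a median log2 ratio of WT A over WT C of -0.26. The median over all such genes was 0.00, and 3 of the 28 were at least 2-fold higher in WT C, where 2.88% of all such genes were.

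Receptors were listed by the signal they bind. Of 317 distinct receptor genes, 190 reached 1 CPM in both libraries and 78 had 0 counts in both. The share detected was 59.9%, against 49.7% of all gene rows and 56.6% of those that code for protein. The share with 0 counts was 24.6%, against 38.0% of all gene rows. All 19 Wnt receptor genes were detected. Fzd7, a Frizzled receptor, led at 150 and 177 CPM per kb, and Fzd2 followed at 118 and 147. The R-spondin receptor Lgr4 stood at 89.0 and 98.3 CPM per kb and Lgr5 at 76.2 and 117. Among 16 TGF-beta and BMP receptor genes, 13 were detected. Bmpr1a, a type 1 BMP receptor, stood at 46.2 and 52.7 CPM per kb, and Acvr1c had 0 counts in both libraries. Of 11 Notch and Hedgehog receptor genes, 10 were detected, and Gas1, a Hedgehog co-receptor, led at 181 and 215 CPM per kb. Notch1 stood at 117 and 138 CPM, whereas Notch3 stood at 18.1 CPM in WT A against 4.08 in WT C.

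Of 58 receptor tyrosine kinase genes, 31 (53.4%) were detected, which lies near the 49.7% of all gene rows. By the mean, Ephb6 led at 126 and 144 CPM per kb, with Fgfr1 at 89.2 and 170.3 and the collagen receptor Ddr1 at 105 and 134. In WT C Fgfr1 stood above Ephb6, and in WT A Ddr1 stood above Fgfr1, so their order differed between the libraries. Fgfr2 stood at 66.1 and 79.0 CPM per kb. Erbb4, Insrr, Pdgfrb, Flt3 and Flt1 had 0 counts in both libraries. Of 26 integrin genes 16 (61.5%) were detected. The laminin-binding chains led, with Itgb1 at 110 and 139 CPM per kb, Itga6 at 109 and 136 and Itgb4 at 76.5 and 116. Itga9, Itga11, Itgad and Itgax had 0 counts.

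Of 48 cytokine receptor genes, 30 (62.5%) were detected, where 49.7% of all gene rows and 56.6% of those that code for protein were. Il31ra, a subunit of the IL-31 receptor, was the highest per kb and differed between libraries, at 90.8 CPM per kb in WT A and 262 in WT C. Il20rb stood at 66.6 and 58.2 CPM per kb. Il7r, Il12rb1 and Il21r, receptors of lymphocytes, had 0 counts in both, as had Il1rl1 and Il18rap. Of 28 TNF receptor genes 15 (53.6%) were detected, and Tnfrsf1a led at 208 and 188 CPM per kb. Tnfrsf1b, Cd40, Cd27, Tnfrsf8 and Tnfrsf9 had 0 counts. Of 49 nuclear receptor genes 27 (55.1%) were detected, with Vdr, the vitamin D receptor, first at 263 and 298 CPM per kb. The retinoid receptors Rarg and Rxra stood at 382 and 381 CPM and at 548 and 459 CPM. Nr1d1, a clock repressor, stood at 279 and 405 CPM. Of 48 G protein-coupled receptor genes 24 were detected. Gpr125, an adhesion receptor, led at 145 and 195 CPM per kb, and Gpr126, another, stood at 41.4 and 96.3. S1pr5, a sphingosine phosphate receptor, stood at 33.1 and 37.8 CPM per kb. Of 14 toll-like receptor genes, 5 (35.7%) reached 1 CPM in both, and the list summed to 31.7 and 42.6 CPM.

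Of 120 distinct ligand and secreted regulator genes, 57 reached 1 CPM in both. That was 47.5%, against 49.7% of all gene rows and 56.6% of those that code for protein. The chemokine Cxcl14 led at 431 and 431 CPM per kb. Sostdc1, an antagonist of BMP and Wnt signals, stood at 377 and 316 CPM per kb, and the antagonists Fst and Grem1 at 98.2 and 137 and at 106 and 101. The Notch ligands Jag2 and Jag1 stood at 49.6 and 68.6 and at 37.0 and 57.7 CPM per kb. Of 22 FGF ligand genes 2 were detected, Fgf1 at 28.3 and 39.2 CPM per kb and Fgf11 at 1.94 and 2.83. Of 19 Wnt ligand genes 7 were detected, led by Wnt7b at 33.6 and 22.4 CPM per kb. Wnt1, Wnt2 and Wnt2b had 0 counts, and so had Igf1, Il1b and Il6. All 20 interferon ligand genes had 0 counts in both libraries.

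Of 213 distinct transcription factor genes, 158 reached 1 CPM in both. That was 74.2%, against 49.7% of all gene rows and 56.6% of those that code for protein. A further 36 (16.9%) had 0 counts in both, against 38.0% of all gene rows. By the mean per kb, Vdr, Barx2 and Lhx2 were the highest of the 28 bulge and follicle factors, and 27 of the 28 were detected. Barx2, a homeobox factor, stood at 286 and 227 CPM per kb. Lhx2, which maintains the bulge, stood at 239 and 244 CPM per kb, and Sox9 at 152 and 166. Trp63 stood at 215 and 242 CPM per kb and the epithelial factor Klf4 at 114 and 129. The inhibitors of differentiation Id3, Id1 and Id2, which are targets of BMP signals, stood at 245 and 309, at 155 and 223 and at 77.5 and 139 CPM per kb. The Hedgehog effector Gli1 stood at 62.2 and 92.8 CPM per kb. Of 20 Sox genes 7 were detected, and Sox2 and Sox11 had 0 counts. Of 39 Hox genes 24 were detected, led by Hoxc8 at 82.7 and 70.5 CPM per kb and Hoxb7 at 52.3 and 51.3. Hoxa10, Hoxa11 and Hoxa13 had 0 counts.

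Factors that end signalling pathways were mostly present. Of 31 Smad, Tead, Tcf and Stat genes and their partners, 30 were detected (96.8%, against 49.7% of all gene rows). Stat4 had 0 counts in both. Yap1, the effector of the Hippo pathway, stood at 71.7 and 73.2 CPM per kb, Stat3 at 37.0 and 39.2 and Stat6 at 34.7 and 40.1. Nfib and Nfix, nuclear factor I members, stood at 137 and 164 and at 95.8 and 96.5 CPM per kb. Of 24 AP-1 and immediate early genes, 22 (91.7%) were detected. Junb, an AP-1 subunit, stood at 39.7 and 41.1 CPM per kb and Ier3 at 39.0 and 40.6. Egr2 and Maff lay farthest apart in that list, in opposite directions, at 27.4 and 7.35 CPM for Egr2 and at 7.40 and 23.8 CPM for Maff.

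Other compartments of the follicle differed in how many of their genes were detected. Over all gene rows, 49.7% were detected and 38.0% had 0 counts in both libraries. Of 15 genes of the hair germ and of activated cells, 13 were detected, among them Pdzrn3 at 78.5 and 111 CPM per kb and Msx2 at 7.69 and 19.3 CPM. All 12 outer root sheath genes were detected, and Krt75, a companion layer keratin, stood at 17.0 and 7.91 CPM. Of 23 genes of the inner root sheath and hair shaft, 6 were detected and 11 had 0 counts in both. Gata3, an inner root sheath factor, led them at 41.0 and 29.7 CPM per kb, and the inner root sheath keratin Krt71 stood at 10.9 and 15.1 CPM.

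**Figure D3:**
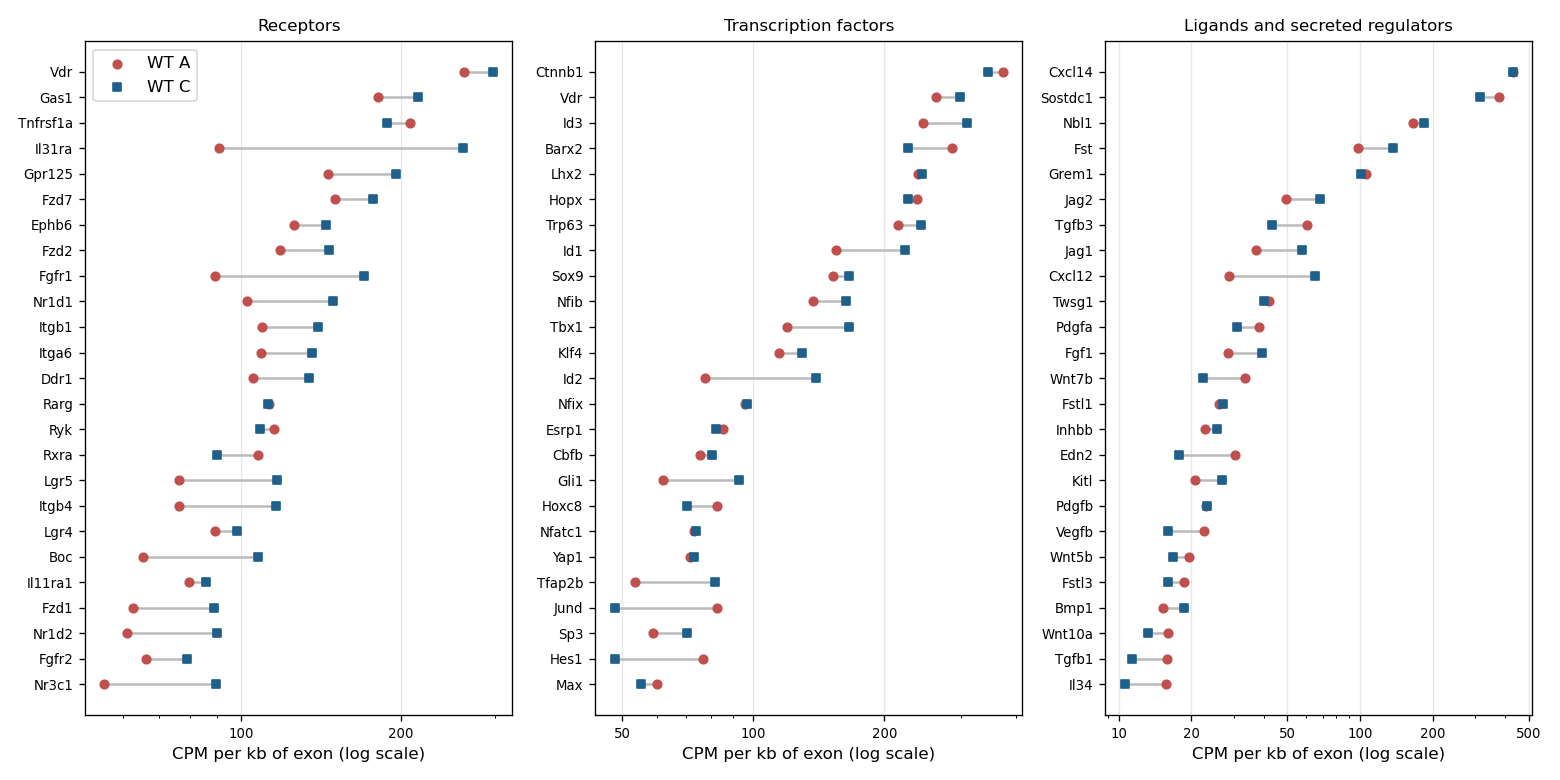
The 25 receptors, 25 transcription factors and 25 ligands and secreted regulators with the highest mean level among those reported, in CPM per kb of exon (log scale), 1 point per library joined by a line. Il31ra and Fgfr1 are the receptors with the widest gap between libraries among those shown, while Lhx2, Nfix and Cxcl14 lie at nearly the same level in both.

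The cells carried transcripts of the cell cycle. All 32 S phase genes and all 30 mitosis genes reached 1 CPM in both libraries (49.7% of all gene rows did). Rrm1, a ribonucleotide reductase subunit, stood at 76.4 and 51.8 CPM per kb. Top2a and Mki67, which are made in cycling cells, stood at 90.8 and 58.3 and at 52.7 and 32.8 CPM per kb. All 30 mitosis genes were higher in WT A, with a median log2 ratio of 0.78, and 7 were at least 2-fold higher, where 2.72% of all genes with a mean of at least 10 CPM were. Of the S phase genes 31 of 32 were higher in WT A, with a median log2 ratio of 0.46. Ccnd2, a D cyclin, stood at 459 and 336 CPM, and the cyclin-dependent kinase inhibitor Cdkn1a at 64.8 and 8.54 CPM. WT A also held the higher summed level of sebaceous and interfollicular genes and their part in these ratios was not tested.

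In total, 9155 gene rows (38.0%) had 0 counts in both libraries. Sensory receptor families were nearly all silent: 1118 of 1123 olfactory receptor rows and 325 of 331 vomeronasal receptor rows were silent. Markers of unrelated organs were at or near 0, with none of 18 liver, gut, kidney and lung genes and none of 13 neuron genes at 1 CPM in both. None of 14 pluripotency and germline genes reached 1 CPM in both, and Pou5f1 had 0 counts. Of 52 keratin-associated protein genes, which form the hair shaft, 49 were silent. All 4 Y-linked genes listed were silent, and Xist, the RNA that coats the inactive X chromosome, stood at 879 and 2534 CPM. A count of 0 is not always absence: Eno1 and Rpl26, genes of glycolysis and the ribosome that every cell uses, also had 0 counts. Of 8887 silent genes with annotated transcripts, 645 (7.26%) had under 10% of their 50-base stretches unique among annotated transcripts, against 0.278% of genes at 1 CPM in both.

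Markers of immune cells were low, and their summed levels were higher in WT A. Of 12 T cell genes, Lck alone reached 1 CPM in both, and Foxp3, Cd4 and Cd8a had 0 counts in both. The summed level of the T cell list was 13.6 CPM in WT A against 3.08 in WT C. The myeloid and Langerhans list summed to 43.1 and 4.33 CPM, led by Cd74, the invariant chain of MHC class II, at 18.2 and 1.07 CPM. Fibroblast genes summed to 1197 and 896 CPM, and 8 of 18 were detected (44.4%, against 49.7% of all gene rows). Most of that sum was Bgn, a matrix proteoglycan, at 1014 and 716 CPM. Crabp1, a retinoic acid binding protein, stood at 16.6 and 27.3 CPM, and the collagen genes Col5a1 and Col1a2 at 94.3 and 76.5 and at 23.9 and 35.8, while Col3a1, Lum and Pdgfrb had 0 counts. Endothelial and mural genes summed to 388 and 450.0 CPM, most of it Cspg4, a proteoglycan, at 372 and 440.3 CPM. Ngfr, a neurotrophin receptor, led the nerve and Merkel cell genes at 27.8 and 27.9 CPM per kb. Of 11 melanocyte genes 4 (36.4%) were detected, led per kb by Mitf at 12.3 and 23.4 CPM per kb. Dct stood at 24.5 and 11.7 CPM. In bulk samples, fewer cells of a type and less RNA per cell cannot be told apart.

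The libraries agreed for most genes. Over 9949 genes with a mean of at least 10 CPM, 79.5% lay within 1.5-fold, and the median absolute log2 ratio was 0.30. Pearson's r across all genes on the log2(CPM + 1) scale was 0.984, where genes are not independent replicates. The 38.0% of rows with 0 counts in both libraries are part of it and match by definition. The counting interval excluded a ratio of 1 for 74.2% of these genes, so most gaps exceeded counting error, but 1 library against 1 gives no test. At least 2-fold higher in WT A were 271 genes (2.72%), and at least 2-fold higher in WT C were 287 (2.88%). In any of the gene lists or families used here were 79 of the 271 and 38 of the 287. How many of all 9949 genes were in them was not counted, so these counts cannot be read as high or low. The gaps were wider on the WT A side: 110 genes were at least 4-fold higher in WT A and 19 in WT C, and 27 against 0 were at least 16-fold apart.

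The highest ratio was that of Tmem45b, a membrane protein, with 21.4 CPM in WT A against 0.251 in WT C (298 and 4 counts). Several of the next genes make lipids. Elovl3, a fatty acid elongase of sebocytes, stood at 110.3 CPM in WT A against 1.76 in WT C, a 62.7-fold ratio with a counting interval of 43.2 to 94.7. Far2, a fatty acyl reductase that makes wax alcohols, stood at 105 and 2.07 CPM, and Fa2h, a fatty acid hydroxylase, at 245 and 6.09 CPM. Elovl4, another elongase, stood at 516 and 15.9 CPM. Cyp2g1, a cytochrome P450, stood at 213 and 6.28 CPM, Ptgs1, a cyclooxygenase, at 64.9 and 2.14, and Serpina3j, a serpin, at 80.0 and 2.01. Rpl35, at 32.4 and 1.44 CPM, is uncertain, since few of its 50-base stretches are unique. Scd1, the desaturase that marks sebocytes, stood at 1364 and 149 CPM. The list of sebaceous gland and infundibulum genes summed to 3550.1 CPM in WT A against 638 in WT C. Of its 15 members with a mean of at least 10 CPM, 12 were at least 2-fold higher in WT A, where 2.72% of all such genes were. Over the 15 the median log2 ratio was 2.97. Elovl3, Far2, Elovl4 and Scd1, named above, are members of that list, so its count is no separate support. Of 24 cholesterol and lipid synthesis genes, which also include Scd1, 13 were at least 2-fold higher in WT A. Elovl6, a fatty acid elongase, stood at 703 and 69.1 CPM.

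Genes of suprabasal epidermis formed another group on the WT A side. Krt10 differed 18.3-fold, with a counting interval of 17.8 to 18.9. The interfollicular differentiation list, which includes Krt10, summed to 12444 CPM in WT A against 3125 in WT C. All 18 members with a mean of at least 10 CPM were higher in WT A. At least 2-fold higher were 14 of them, where 2.72% of all such genes were. Krtdap, a protein of differentiating keratinocytes, stood at 416 and 46.6 CPM. Zfp750, a factor of terminal differentiation, stood at 42.7 and 3.20 CPM. Calml3, by contrast, stood at 1443 and 1173 CPM. The part of other epidermal cells in these gaps was not tested.

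On the WT C side the gaps were narrower. Slc15a2, a peptide transporter, stood at 2.37 and 36.0 CPM, a 15.2-fold ratio with a counting interval of 10.7 to 22.3. Neat1 and Malat1, long noncoding RNAs kept in the nucleus, stood at 349.6 and 1953 CPM and at 83.2 and 394 CPM. Firre, a nuclear RNA of the X chromosome, stood at 42.7 and 189 CPM. Of 7 nuclear and small RNA genes with a mean of at least 10 CPM, 4 were at least 2-fold higher in WT C, where 2.88% of all such genes were. Rgs11, a regulator of G protein signalling, stood at 4.10 and 25.2 CPM, and Ttc14 at 57.8 and 242 CPM. Smad9, a BMP-regulated Smad, stood at 9.78 and 40.5 CPM. Lime1 and Hoxd4 were also among the widest gaps on the WT C side. They are uncertain, since few 50-base stretches of Lime1 are unique and Hoxd4 overlaps a neighbour.

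**Figure D4:**
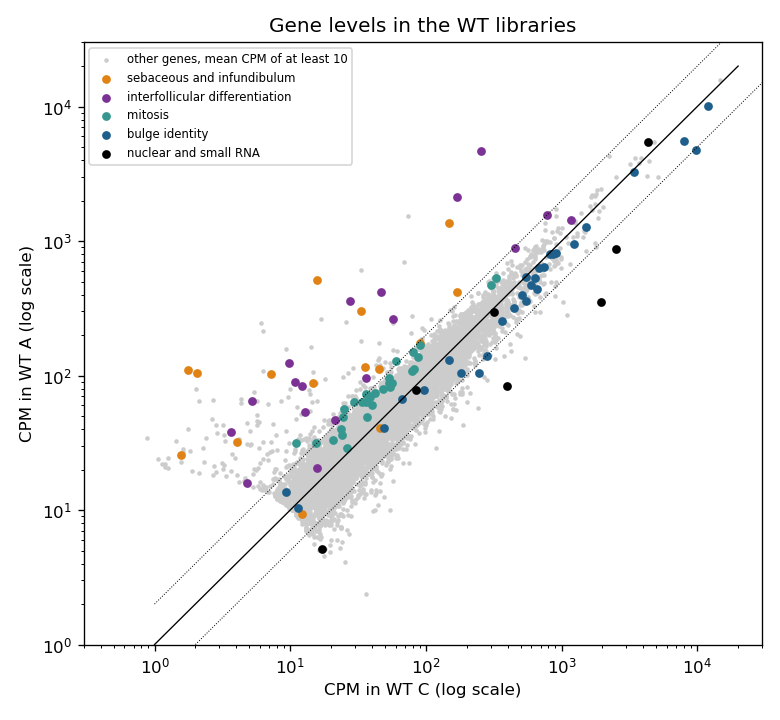
CPM in WT A against CPM in WT C (log scales) for genes with a mean of at least 10 CPM, with 5 gene lists coloured, a line of equal level and dotted lines at 2-fold. Of the sebaceous genes 12 of 15, and of the interfollicular genes 14 of 18, lie above the upper dotted line, and 26 of 28 bulge identity genes lie below the line of equal level.

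The ratio also moved with transcript length. Genes were put in 5 classes of like number by their longest annotated transcript. The median log2 ratio of WT A over WT C was 0.30 in class 1 (96 to 2085 bases) and -0.28 in class 5 (5464 to 123179 bases). Of genes at least 2-fold higher in WT A, 103 lay in class 1 and 25 in class 5, and of those higher in WT C, 31 and 108. Centred on genes of like length, the sebaceous list kept a median log2 ratio of 2.59, the interfollicular list 2.58, mitosis 0.78 and bulge identity -0.36. Ribosomal protein genes moved from 0.45 to 0.11. The part of length in single ratios was not tested.

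**Figure D5:**
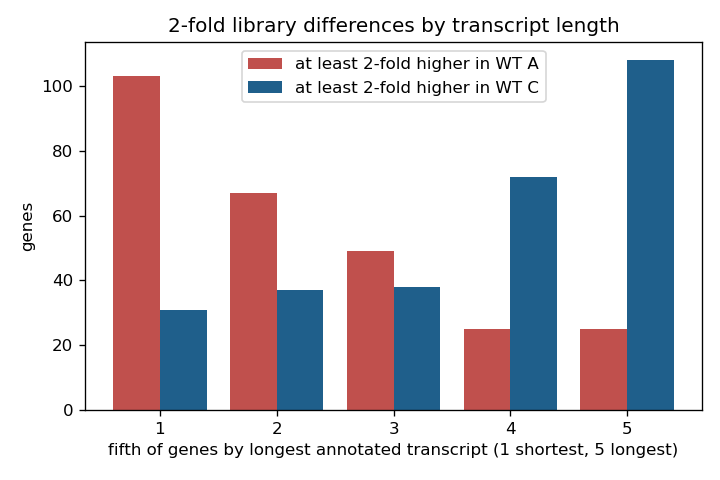
Number of genes at least 2-fold higher in WT A or WT C, in 5 classes of genes by longest annotated transcript, from class 1 (shortest) to class 5 (longest). Genes higher in WT A fall from 103 in class 1 to 25 in class 5, and genes higher in WT C rise from 31 to 108.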

How the data were processed

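The authors deposited raw counts, whole numbers of reads for each gene symbol. Per the labels' protocols, the libraries used a stranded mRNA kit. Per the submitters' processing notes, the tools named include HTSeq 0.6.1, TopHat2 2.0.12, SAMtools 0.1.19.0, CASAVA 1.8.2 and Bowtie2 2.1.0.0, on build mm10. The counting's strand setting and annotation are not stated there, so overlapping and antisense genes cannot be told apart.

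The 5 rows that name no gene (70.1% of counts in WT A and 62.0% in WT C) were dropped. CPM was computed over gene rows, and levels per kb over the union of GENCODE M21 exons (98.3% of rows matched), in Python 3.11.15. Ratios were taken over genes with a mean of at least 10 CPM, with exact (Clopper-Pearson) 95% counting intervals. No test was run. TMM (edgeR 4.0.16) and DESeq2 1.42.0 size factors served as alternative scalings.

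The members and lists were chosen with earlier results of these data known. Named genes were the 30 highest by mean CPM, the 5 markers, up to 5 highest per kb and up to 5 silent genes of each described list, the 15 widest ratios in each direction, the farthest member of a list in each direction, and Notch1, Jag1, Foxp3 and Xist. Predicted genes and 27 names that read as dates were counted but not named. Some genes that the rule took are not reported here.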

Additional observations from a re-analysis of the deposited data

How the results depend on the processing

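No paired analysis was possible because only the WT group was used, and no groups were compared. The counts of all genes, receptors and factors at 1 CPM in both libraries stayed within 1.5 times under every setting run for them: 0.5 or 2 CPM, the mean of both, TMM or DESeq2 scaling, 1 library alone, or genes unique among annotated transcripts. The count of silent genes did so with at most 3 counts over both libraries taken as silent and with 1 library alone. The setting on unique genes was chosen after seeing the data and replaces a planned one on the genome, which was not run. The share of counts in the top 100 genes (18.4%) was 15.2% when genes were ranked per kb and 6.24% of all counts with the rows that name no gene, and ran from 18.7% to 18.8% with 1 library left out. Genes 2-fold higher in WT A numbered 729 at a mean of at least 1 CPM and 1683 with no filter, and those higher in WT C 699 and 1756. With a counting interval wholly past 2-fold, 196 were higher in WT A and 151 in WT C. Centring on transcript length, also added after seeing the data, gave 245 and 229. With 2 libraries, 1 of them decides every gap.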

Other observations

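Genes that code for protein took 98.3% of gene counts in WT A and 98.0% in WT C. Long intergenic noncoding RNAs took 0.224% and 0.599%, and 73 of 810 reached 1 CPM in both libraries. Of 1110 microRNA rows, 7 did.

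Ribosomal protein genes took 2.38% of counts in WT A and 1.76% in WT C. Rpl8 stood at 2104 and 1594 CPM per kb and Rpl4 at 1953 and 1643. Of 25 genes of the actin and tubulin cytoskeleton, 24 were higher in WT A, and Actb stood at 1356 and 758 CPM. The cytoskeleton list had a median log2 ratio of WT A over WT C of 0.47, and 0.37 once centred on transcript length. The median over all genes with a mean of at least 10 CPM was 0.00. All 25 respiratory chain genes were detected, with Cox4i1 at 666 and 483 CPM per kb and Atp5b at 605 and 446. Their median log2 ratio of WT A over WT C was 0.43, and 0.11 once centred on transcript length. Aldoa, a glycolytic enzyme, stood at 193 and 151 CPM per kb. The calcium-binding protein S100a6 stood at 2679 and 2171 CPM per kb, and the annexin Anxa8 at 901 and 886. The serpin Serpinb5 stood at 333 and 263 CPM per kb. Among cytochrome P450 genes 21 were detected, and Cyp4b1 stood at 105 and 166 CPM. Only 5 of 25 claudin genes were detected, led by Cldn1 at 123 and 117 CPM per kb.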
